A study of Mus musculus with 2 samples.

Results

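Cytosolic ribosomal protein genes encode the protein parts of the ribosome that translates nuclear-encoded messages. Their products assemble with ribosomal RNA into the large and the small subunit, and the acidic P-proteins form a stalk on the large subunit that recruits elongation factors. Vertebrate ribosomal protein promoters are known as short, GC-rich promoters whose transcripts start within a run of pyrimidines, the 5′ terminal oligopyrimidine (TOP) tract through which mTOR signalling controls their translation. The genes here were the protein-coding genes of GENCODE M21 whose symbol is Rpl, Rps or Rplp followed by digits and an optional letter, plus Rpsa, the laminin-receptor protein of the small subunit, with the Rps6k kinase genes left out. This rule found 80 of 21911 coding genes: 46 of the large subunit, 31 of the small subunit and 3 of the P-stalk. It used names only and no measured value.

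DNase-seq, in which DNase I cuts mark open chromatin, was available for 1 group: cerebellum of male B6CASTF1/J mice, a first-generation hybrid of C57BL/6J and CAST/EiJ, aged 8 to 10 months. Each of the 2 libraries, labelled biological replicates 1 and 2, came from a pool of 2 cerebellum biosamples, and no untreated or other control sample is part of the design. A group of 2 replicates allows no test of a difference between genes beyond its spread, so both replicate values are given throughout as a description. In whole tissue, the share of cells with an open start and the openness per cell cannot be told apart. The tissue label was set against marker genes: 10 of 10 granule neuron genes had a peak at a start in both libraries, as did 3 of 5 Purkinje cell genes, 2 of 5 astrocyte and Bergmann glia genes, 1 of 5 oligodendrocyte genes, 0 of 5 microglia genes and 0 of 5 genes not expected in cerebellum. The stricter of the authors' peak lists held 61776 peaks in replicate 1 and 71141 in replicate 2. The peak signal moved in fixed steps of 0.00714 and 0.00632, and every value under 100 steps was a whole multiple within 0.05 of a step. The median member peak therefore stood on 1031 and 810 steps. If a step is 1 cut, which the sources used here do not state, counting error would be 3.11% and 3.51%.

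The sequences that carry the description below are shown first. Each of the following 5 stretches is reference sequence (mm10, GRCm38.p6) on the gene's strand, just upstream of the gene's first annotated start at its peak, in lower case, with the bases under a footprint in both libraries in capitals. A footprint is a short run of bases protected from DNase inside an open region. The mice also carry CAST/EiJ alleles, whose letters were not analysed here. They were chosen because each has a named motif under its footprints: CCAAT in Rplp0, TGACGTCA in Rpl13, and TCTCGCGA or its reverse complement TCGCGAGA in Rpl26, Rpl23a and Rps15a.
Rplp0, chr5:115559281-115559466, plus strand: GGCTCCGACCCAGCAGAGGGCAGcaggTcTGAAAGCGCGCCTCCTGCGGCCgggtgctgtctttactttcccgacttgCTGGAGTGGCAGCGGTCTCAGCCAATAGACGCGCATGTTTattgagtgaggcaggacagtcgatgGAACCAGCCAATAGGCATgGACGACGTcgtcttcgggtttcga
Rpl13, chr8:123102261-123102349, plus strand: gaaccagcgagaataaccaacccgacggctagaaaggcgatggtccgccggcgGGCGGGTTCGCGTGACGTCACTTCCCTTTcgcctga
Rpl26, chr11:68901383-68901582, plus strand: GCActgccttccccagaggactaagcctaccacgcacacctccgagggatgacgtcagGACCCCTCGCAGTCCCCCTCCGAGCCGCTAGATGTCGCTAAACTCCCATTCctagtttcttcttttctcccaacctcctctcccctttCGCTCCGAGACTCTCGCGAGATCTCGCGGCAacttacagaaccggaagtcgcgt
Rpl23a, chr11:78183585-78183640, minus strand: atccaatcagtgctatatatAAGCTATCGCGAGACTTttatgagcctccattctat
Rps15a, chr7:118116189-118116340, minus strand: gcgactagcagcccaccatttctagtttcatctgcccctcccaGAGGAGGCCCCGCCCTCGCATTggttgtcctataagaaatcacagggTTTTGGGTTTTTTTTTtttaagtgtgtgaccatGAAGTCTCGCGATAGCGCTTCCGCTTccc

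The next 3 stretches, upstream of the paralogs that had no peak, are shown in the same way and hold no capitals, since no footprint of either library covered them.
Rpl10l, chr12:66284402-66284521, minus strand: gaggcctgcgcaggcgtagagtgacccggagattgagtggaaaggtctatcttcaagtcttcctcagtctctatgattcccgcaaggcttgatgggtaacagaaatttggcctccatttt
Rpl39l, chr16:10170106-10170225, plus strand: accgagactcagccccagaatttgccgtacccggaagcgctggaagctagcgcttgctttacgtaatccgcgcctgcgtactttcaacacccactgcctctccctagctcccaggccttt
Rpl3l, chr17:24727700-24727819, plus strand: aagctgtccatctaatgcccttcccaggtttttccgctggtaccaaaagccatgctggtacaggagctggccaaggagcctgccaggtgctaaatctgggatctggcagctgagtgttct

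A peak of the stricter list overlapped the region within 1 kb of an annotated start in 77 of the 80 genes in replicate 1 and in 77 of 80 in replicate 2. Across all coding genes the same was true of 58.4% and 57.2%. The same 77 genes had the peak in both libraries, and the same 3, Rpl3l, Rpl10l and Rpl39l, lacked it in both. Every small-subunit gene (31 of 31) and every P-stalk gene (3 of 3) had a peak, so the 3 exceptions all belonged to the 46 genes named for the large subunit. All 78 mitochondrial ribosomal protein genes, which encode the separate ribosome of that organelle, also had a peak in both libraries, as did all 20 genes of a list of other translation genes and all 20 of a list of ribosome biogenesis genes.

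The strongest peak at a start had a median signal of 7.36 in replicate 1 and 5.12 in replicate 2 among the 77 genes. The corresponding medians over the 12241 coding genes with a peak in both libraries were 5.05 and 3.46. Ranked among all 21911 coding genes, with genes lacking a peak tied at the bottom, the 80 ribosomal protein genes had a median percentile of 83.2 and 82.6. The small-subunit genes stood at 85.7 and 85.8 and the large-subunit genes at 82.9 and 81.8. Mitochondrial ribosomal protein genes ranked lower, at 72.3 and 72.9, about level with the 72.1 and 72.1 of coding genes with a peak in both. The list of other translation genes, among them the elongation factors Eef1a1 and Eef2, ranked higher, at 93.1 and 92.7. Ribosome biogenesis genes stood at 72.6 and 79.3. Of the 80 genes, 76 were above percentile 50 in both libraries and 20 were above percentile 90 in both. By library, 77 and 76 were above percentile 50, beside 10891 and 10907 of the 12241 coding genes with a peak in both. Above percentile 90 there were 24 and 23, beside 2189 and 2191 of the 12241. Genes without a peak tie below percentile 50, so the count above it largely restates the presence of a peak.

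**Figure D1:**
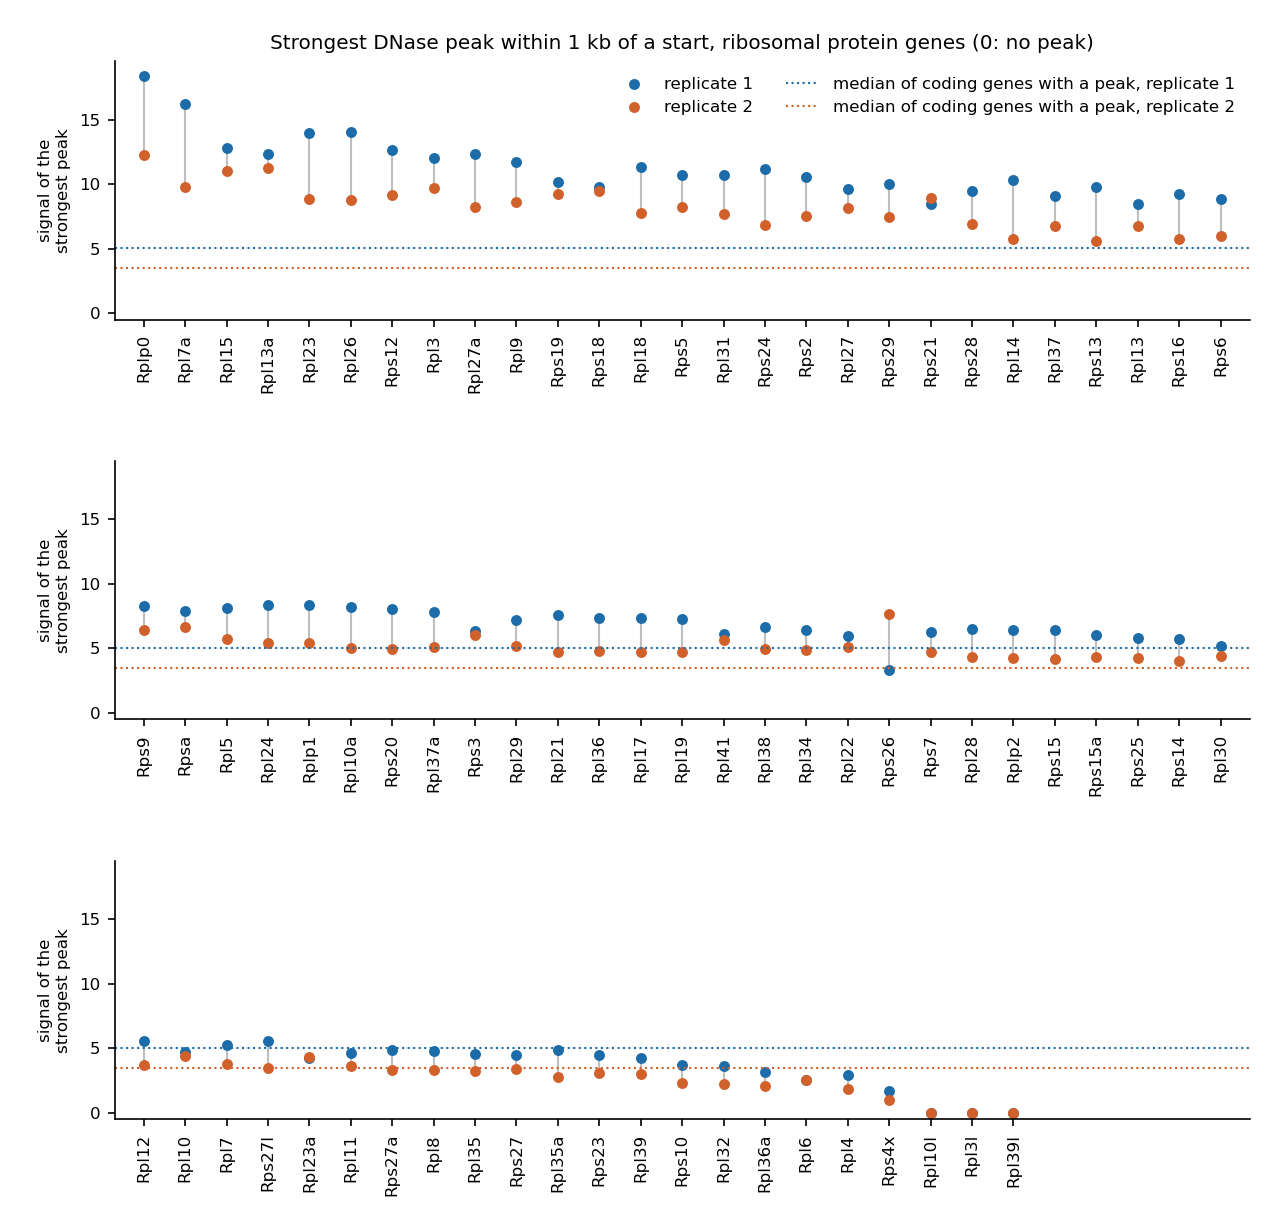
Signal of the strongest stricter-list peak within 1 kb of a start (vertical axis, the authors' signal value) for 76 of the 80 genes (horizontal axis, ordered by the mean of both libraries over 3 panels). Each dot is 1 library, a grey line joins the 2 libraries, dotted lines are the medians of coding genes with a peak in both (5.05 and 3.46), and the 3 genes at 0 have no peak.

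**Figure D2:**
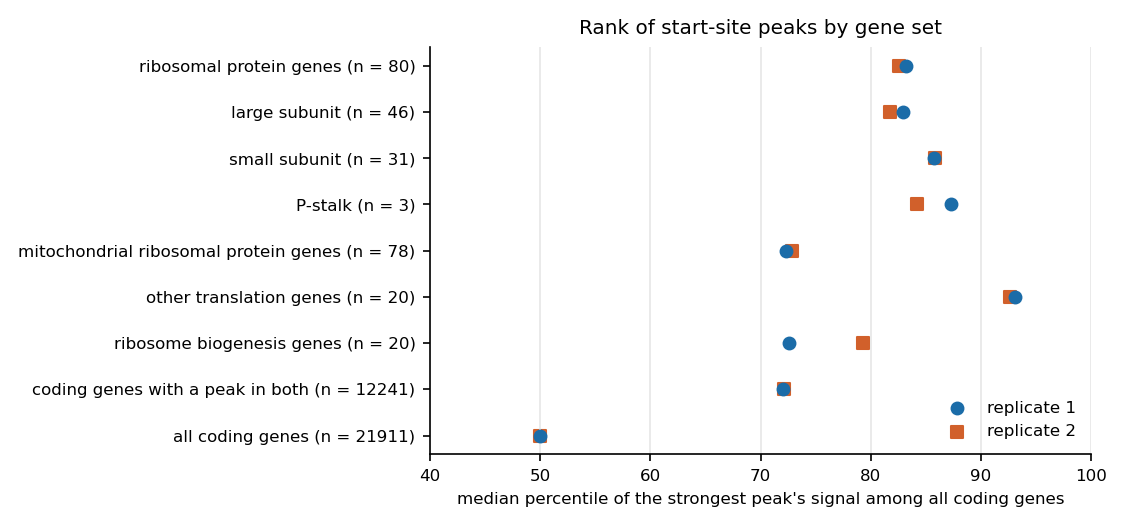
Median percentile of the strongest start-site peak (horizontal axis, percentile among all coding genes) for each gene set (vertical axis, with its number of genes), 1 mark for each library. The ribosomal protein genes (83.2 and 82.6) lie between the mitochondrial ribosomal protein genes (72.3 and 72.9) and the other translation genes (93.1 and 92.7).

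Among ribosomal protein genes that the naming rule leaves out, Fau, which encodes a ribosomal protein fused to a ubiquitin-like protein, gave 12.9 and 7.94. Rps27rt, a retrogene, had no peak in either library.

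The P-stalk genes illustrate the spread within the group. Rplp0, whose product anchors the stalk, had the strongest start-site peak of all 80 genes, with 18.4 in replicate 1 and 12.2 in replicate 2, at percentiles 99.8 and 98.8. Rplp1 gave 8.34 and 5.40, and Rplp2 gave 6.40 and 4.24. Their products are the paired acidic proteins that bind the Rplp0 anchor. Rplp2 had 1 of the 4 widest peaks of the family, 480 and 540 bp, whereas the peak of Rplp0 spanned 220 and 240 bp.

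Among the large-subunit genes, Rpl7a was highest in replicate 1 and by mean, with 16.2 and 9.75, and its peak also lies within 500 bp of the start of Med22, a Mediator gene. Rpl15 gave 12.8 and 11.02 at a peak it shares with Nkiras1. Rpl13a, which also has a described role outside the ribosome in translational silencing after interferon, gave 12.3 and 11.3. Rpl23 and Rpl26 gave 14.0 and 8.87, and 14.1 and 8.74. Rpl3, whose product lies near the peptidyl transferase centre, gave 12.02 and 9.70, and Rpl27a gave 12.3 and 8.26. The order within this top group was not the same in both libraries: Rpl7a, Rpl23 and Rpl26 were above Rpl15 and Rpl13a in replicate 1 and below them in replicate 2.

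Rps12 was among the strongest small-subunit genes, with 12.7 and 9.12. Rpsa gave 7.93 and 6.66. At the low end stood Rps4x, the X-linked gene for a small-subunit protein, with 1.73 and 1.01, at percentiles 51.0 and 49.8. That is near the middle of all coding genes only because genes without a peak tie below it. Of the 12241 coding genes with a peak in both, 1350 and 1319 were under percentile 50, and their medians were 5.05 and 3.46. Others near the low end were Rpl4 (2.91 and 1.87), Rpl6 (2.52 and 2.55), Rpl36a (3.16 and 2.05) and Rpl32 (3.63 and 2.21). Rpl4 encodes a protein that lines the exit tunnel of the ribosome.

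The X-linked members were low as a group. Rps4x, Rpl36a, Rpl39 and Rpl10 had a median signal of 3.70 and 2.52, and the 73 autosomal members with a peak had 7.66 and 5.40. X-linked coding genes with a peak in both libraries, 403 in all, had 2.56 and 1.91, and the 11834 autosomal ones had 5.18 and 3.55. The mice were male and carry a single X chromosome. The part of chromosome number in the lower X-linked values was not tested.

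Several members have a described phenotype when mutated, and their starts were open to different degrees. Rps19, mutated in Diamond-Blackfan anaemia and in a dark-skin mouse, gave 10.2 and 9.21, and its peak was the widest of the family by mean, with 480 and 640 bp. Rpl24, the gene of the Belly spot and tail mouse, gave 8.33 and 5.44. Rpl38, the gene of the Tail short mouse, gave 6.70 and 4.96. Rps6, whose product is phosphorylated downstream of mTOR, gave 8.87 and 5.96, and Rps20, the other dark-skin gene, gave 8.09 and 4.99. Among the genes whose products bind Mdm2 under ribosomal stress, Rpl5 gave 8.12 and 5.77, Rpl11 gave 4.65 and 3.603, and Rps7 gave 6.30 and 4.71. Rps14, in the commonly deleted region of a human myelodysplastic syndrome, gave 5.76 and 4.04. Rpl11 ranked lowest among these 9 genes in both libraries, at percentiles 69.8 and 73.1, and Rps19 highest, at 92.6 and 95.6.

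Signal was higher in replicate 1 than in replicate 2 for 72 of the 77 genes, with a median log2 ratio of 0.50 (SD across genes 0.29). Over all 12241 coding genes with a peak in both, signal was higher in replicate 1 for 11462. Their median log2 ratio was 0.55 (SD 0.33), so an offset of this size was shared by coding genes in general. It varied between genes: Rpl14 had the highest log2 ratio at 0.84 (10.3 and 5.77), followed by Rps13 at 0.81 and Rpl35a at 0.81. Near the other end stood Rps21 at -0.07 and Rpl23a at -0.02. Rps26 was far from the rest at -1.21, with 3.33 in replicate 1 and 7.69 in replicate 2. There the libraries differed in where peaks were called around the chosen start at chr10:128626747, on the minus strand. Replicate 2 had 1 peak over the chosen start, chr10:128626701-128626940. Replicate 1 had a peak on each side, chr10:128626341-128626560 with a signal of 3.33 and chr10:128626841-128626980 with a signal of 2.73, and none over the chosen start. The gene has 3 annotated starts, and the middle of the peak with 3.33 was at -26.5 bp from the nearest of them.

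Peaks at these genes were mostly single and close to the start. The median width was 240 bp in both libraries, beside 240 and 260 bp for coding genes with a peak in both. Just 1 peak lay within 1 kb of the starts in 53 of 77 genes in replicate 1 and 47 of 77 in replicate 2 (68.8% and 61.0%). For all coding genes with a peak in that library this was 43.5% and 40.3%, although ribosomal protein genes had a median of 6 annotated starts and the coding genes with a peak in both had 5. The middle of the strongest peak was within 100 bp of an annotated start in 67 and 66 of the 77 genes (87.0% and 85.7%), beside 65.0% and 63.0% of all coding genes with a peak. Mitochondrial ribosomal protein genes were alike in both respects, with 65.4% and 56.4% having a single peak and 84.6% and 85.9% centred within 100 bp.

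In 12 of the 77 genes the strongest peak also lay within 500 bp of the start of another coding gene, so the signal cannot be assigned to 1 of them. The share, 15.6%, compares with 17.5% of the other 12164 coding genes with a peak in both libraries. For Rps10 the neighbour was the read-through gene RPS10-NUDT3. The other 11 pairs included Rpl15 with Nkiras1, Rpl9 with Lias, Rpl18 with Sphk2, Rps25 with Trappc4, Rps28 with Ndufa7, Rps18 with Vps52, Rps27a with Clhc1, Rpl4 with Zwilch and Rpl12 with Lrsam1. The median signal of the 12 was 7.64 and 5.57, and that of the other 65 was 7.36 and 5.12. Many ribosomal protein genes carry small nucleolar RNAs, guides for ribosomal RNA modification, in their introns. The 29 genes holding an annotated one had a median of 7.93 and 5.73, and the 48 other genes with a peak had 7.10 and 5.08.

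The 3 genes without a stricter peak are all paralogs with expression described mainly in other tissues. Rpl10l is an intronless copy of the X-linked Rpl10 known from the testis, Rpl39l is the testis counterpart of the X-linked Rpl39, and Rpl3l takes the place of Rpl3 in heart and skeletal muscle. No base within 1 kb of their chosen starts reached a false discovery rate (FDR) under 0.001 in either library. At Rpl10l the lowest rate was 0.0163 in replicate 1 and 0.0308 in replicate 2, and the nearest stricter peaks were 893840 and 247801 bp away. At Rpl39l no base under 0.05 was listed in either library, and the nearest stricter peaks were 22553 and 22573 bp away, at the start of Atf7ip2. For Rpl3l the nearest was 3260 bp away in both, at the start of Ndufb10, with 8.43 and 4.29. By contrast, the broadly expressed counterparts were open: Rpl3 as given above, Rpl10 with 4.72 and 4.39, and Rpl39 with 4.24 and 2.996.

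With the authors' longer peak list, which also keeps weaker peaks, 79 genes had a peak in replicate 1 and 77 in replicate 2, beside 63.4% and 62.2% of all coding genes. Both gains were in replicate 1 alone. They were Rpl10l, with a signal of 0.221 at 151 bp from its start, and Rpl3l, with a signal of 0.685 at 857 bp from the nearest of its 3 starts. Neither was found in replicate 2. Not every paralog was closed: Rps27l, the paralog of Rps27 known as a target of the tumour suppressor Trp53, gave 5.56 and 3.48, and Rps27 itself gave 4.48 and 3.37. The reference sequence at the 3 closed starts differed in CpG content. The ratio of observed to expected CpG in the 501 bp around the chosen start was 0.08 at Rpl3l, 0.67 at Rpl39l and 0.86 at Rpl10l, while the lowest ratio at a gene of the family with a peak was 0.57.

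Copies that have lost their introns are numerous for these genes, and 294 annotated processed pseudogenes carry a ribosomal protein name. In each library 10 of them had a stricter peak within 1 kb. Of the 282 that were more than 2 kb from any coding start, 8 in each library (2.84%) had a peak, with a highest signal of 5.96 and 5.04. No source used here states how reads matching several places were treated, which bears on the exons that genes and pseudogenes share.

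At least 1 footprint lay within 1 kb of a start in 78 of the 80 genes in replicate 1 and 77 of 80 in replicate 2, beside 61.7% and 59.6% of all coding genes. The extra gene in replicate 1 was Rpl3l, with 3 footprints and no stricter peak. The number was a median of 10 in both libraries, and 11 and 10 among genes with a peak, equal to the 11 and 10 of coding genes with a peak in both. A gene with more starts has a wider searched region. Per kb of that region the ribosomal protein genes had 3.09 and 3.22 footprints, and coding genes with a peak in both had 2.45 and 2.25. The mitochondrial ribosomal protein genes had 3.0 and 3.14 and the 20 other translation genes 3.23 and 2.80, so the density was not particular to the family. Counting just the footprints that overlap a stricter peak of the same library, the median was 6 in both.

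The number of footprints varied widely between loci. Rpl3 had 32 and 45 footprints and Rpl18 had 33 and 34, in searched regions of 6826 and 6086 bp. At Rpl18 the strongest peak lay at the RefSeq start, which is shared with the divergent gene Sphk2, rather than at the chosen GENCODE start. Rps10 had 22 and 24 footprints, Rpl7 had 19 and 21, Rps18 had 25 and 12, and Rps19 had 15 and 21. The fewest among genes with a peak were 3 and 4 at Rps4x, which also had the weakest peak. Rpl36a and Rpl11 followed with 6 and 4, and 6 and 5.

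Footprints were frequent on both sides of the chosen start. In the 50 bp just upstream of it, 70 of the 80 genes had one in replicate 1 and 72 of 80 in replicate 2. Among the other 12164 coding genes with a peak in both libraries it was 75.8% and 73.3%. In the first 50 bp from the start onwards it was 67 and 72 of the 80 genes, beside 71.1% and 67.5% of the other open genes. From -100 to -51 bp it was 63 and 73 of the 80 genes, beside 73.2% and 71.2%. The 78 mitochondrial ribosomal protein genes had 93.6% and 87.2% just upstream and 91.0% and 85.9% from the start onwards. Their shares from -100 to -51 bp were 79.5% and 84.6%, so frequent footprints near the start were not particular to the family. Farther upstream, from -250 to -201 bp, the shares were 38.8% and 37.5%, beside 39.4% and 38.7%. Of the footprints within 250 bp of the start, 71.5% in replicate 1 overlapped one in replicate 2, and 73.8% the other way, beside 68.5% and 74.0% at the other open genes.

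**Figure D3:**
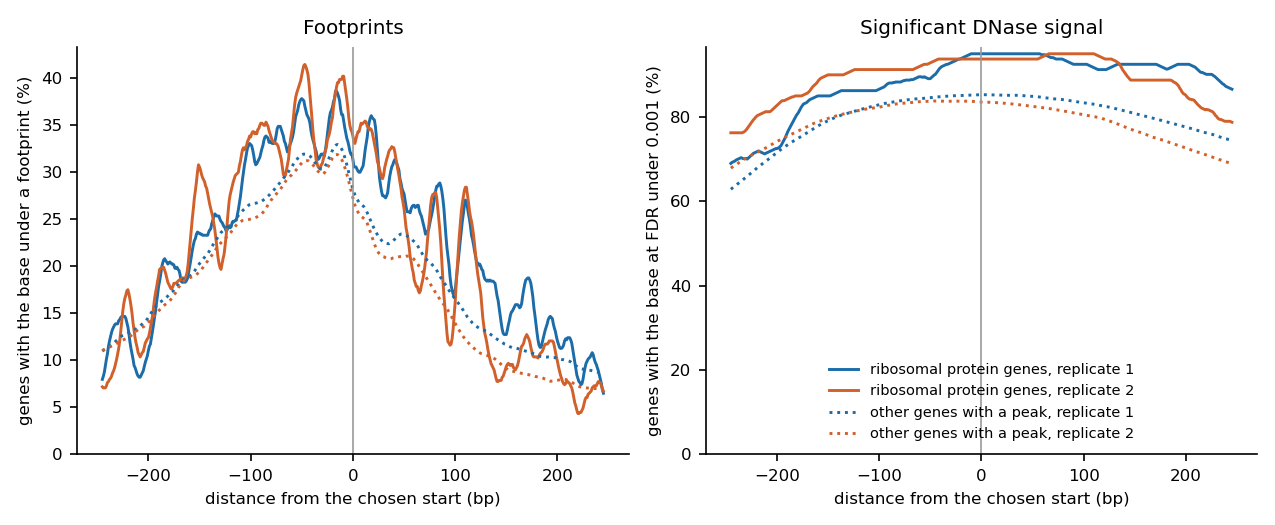
Share of genes (vertical axes, %) with a base under a footprint (left) and with a base at an FDR under 0.001 (right), against the distance from the chosen start (horizontal axis, bp, upstream negative), as running means over 11 bp. Solid lines are the 80 ribosomal protein genes, of which 3 have no peak, and dotted lines are the other 12164 coding genes with a peak in both, 1 colour for each library; the solid footprint lines run above the dotted ones around the start.

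Motifs were searched as exact letters on both strands within 250 bp of the chosen start, and a match is only a description of the letters. The motif TCTCGCGA, bound by BANP and related to that of ZBTB33, had the highest ratio of the 9 motifs between these genes and other open coding genes. It occurred at 15 of the 80 genes, beside 2.63% of the other open coding genes, 1.68% of all coding genes and 3 of the 78 mitochondrial ribosomal protein genes. Searched instead within the strongest peak, it was found in 14 of 77 genes in replicate 1 and 13 of 77 in replicate 2, beside 2.45% and 2.43% of the other peaks. The 15 genes included Rpl4, Rpl7a, Rpl10a, Rpl12, Rpl17, Rpl23a, Rpl26, Rpl27a, Rps6, Rps7, Rps15a, Rps19 and Rps28. They thus came from both subunits. The median signal of those with the motif was 8.23 and 5.06, and that of the genes with a peak and no motif was 7.29 and 5.16, so the libraries differed in which was higher.

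The motif overlaps its own reverse complement when followed by GA, giving a palindrome of 10 bases. Counting overlapping matches once, there were 17 places, of which 10 were the palindrome and 13 lay within 100 bp of the chosen start. A footprint covered 13 of the 17 in replicate 1 and 13 in replicate 2 (76.5% each). At the 320 other open genes with the motif, 64.9% and 63.8% of 362 places were covered. The following sites of 30 bases, with the motif in capitals, show the palindrome at Rpl10a, Rps28 and Rps6 and the single form at Rpl7a. These 4 sites were all under a footprint in both libraries.
Rpl10a, chr17:28328523-28328552, plus strand: taacgggcaacTCTCGCGAgaacgcgggct
Rps28, chr17:33824545-33824574, minus strand: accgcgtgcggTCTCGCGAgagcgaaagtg
Rpl7a, chr2:26910744-26910773, plus strand: agggcgcctgcTCTCGCGAtatctgcggcc
Rps6, chr4:86857400-86857429, minus strand: ccgccggctgtTCTCGCGAgaacttagagc

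The same motif at Rpl27a, Rpl4 and Rps7 was not under a footprint in either library, and Rps19 held 1 uncovered place upstream and covered ones downstream of its chosen start. These counter-examples had the same letters.
Rpl27a, chr7:109519163-109519192, plus strand: cgcctgctaccTCGCGAGActtcgtgagct
Rpl4, chr9:64173121-64173150, plus strand: agaaagataatTCTCGCGAgagttgtgacg
Rps7, chr12:28635880-28635909, minus strand: atatgagccgtTCTCGCGAgagccgtccct

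The ETS core CCGGAAG, bound by factors such as GABPA, was found at 33 of the 80 genes, beside 22.6% of other open genes and 51.3% of mitochondrial ribosomal protein genes. Its 42 matches include those at Rpl39l, which had no peak or footprint, and overlapping matches on opposite strands at Rps14 were counted separately. Of these 42 matches, 38.1% and 35.7% were under a footprint, beside 48.2% and 46.4% at other open genes. This order turned round with the shorter forms CCGGAA and ACGGAA, for which 44.7% of 103 matches were covered as a mean of both libraries, beside 39.2% and 37.6%. YY1 letters, AANATGGC, were found at 17 genes (21.3%), beside 13.6% of other open genes and 37.2% of mitochondrial ribosomal protein genes. A footprint covered 13 of the 21 matches in each library (61.9%), beside 45.8% and 44.7% at other open genes. An example is the site of Rps27, with the motif in capitals.
Rps27, chr3:90213704-90213733, minus strand: aagaccttccgAAGATGGCgaagcaacacg

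The SP and KLF box GGGCGG was found at 60 of the 80 genes, beside 76.3% of other open genes, and CCAAT, bound by NF-Y, at 27, beside 45.6%. The NRF1 palindrome CGCATGCG was found at 3 genes, Rpl5, Rpl10a and Rpl37a, beside 4.46% of other open genes. It was under a footprint in both libraries at each of the 3, beside 89.2% and 90.8% of the matches elsewhere. The cyclic AMP response element TGACGTCA was found near the chosen start of 5 genes, beside 3.96% of other open genes. Among these 5, Rpl13, Rpl27a, Rps9 and Rps29 had it under a footprint in both libraries and Rpl26 in neither. So 4 of the 5 matches were covered, beside 91.8% and 92.2% elsewhere. Searched within the strongest peak, the element was found in 7 and 6 of 77 genes (9.09% and 7.79%), beside 4.11% and 4.12% of the other peaks. The E-box CACGTG was found at 15 genes, beside 13.1% of other open genes, and 3 and 6 of its 15 matches were covered (20% and 40%), beside 37.7% and 37.6%, so the order turned between the libraries. TATAAA was found at 10 genes, beside 8.27% of other open genes. Of its 11 matches 5 were covered in each library (45.5%), beside 12.1% and 13.7%. Within the strongest peak, 9 of the 77 genes with one had TATAAA in each library (11.7%), beside 2.61% and 3.06% of other open genes. The 11 matches near the chosen start were spread from -137 to 84 bp relative to it, with none in the stretch just upstream where a TATA box usually sits. Of 60 genes with a RefSeq start, 23 had one within 10 bp of the chosen start and 12 had none within 100 bp. The positions therefore cannot tell whether a match sits at a TATA box position of another start.

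**Figure D4:**
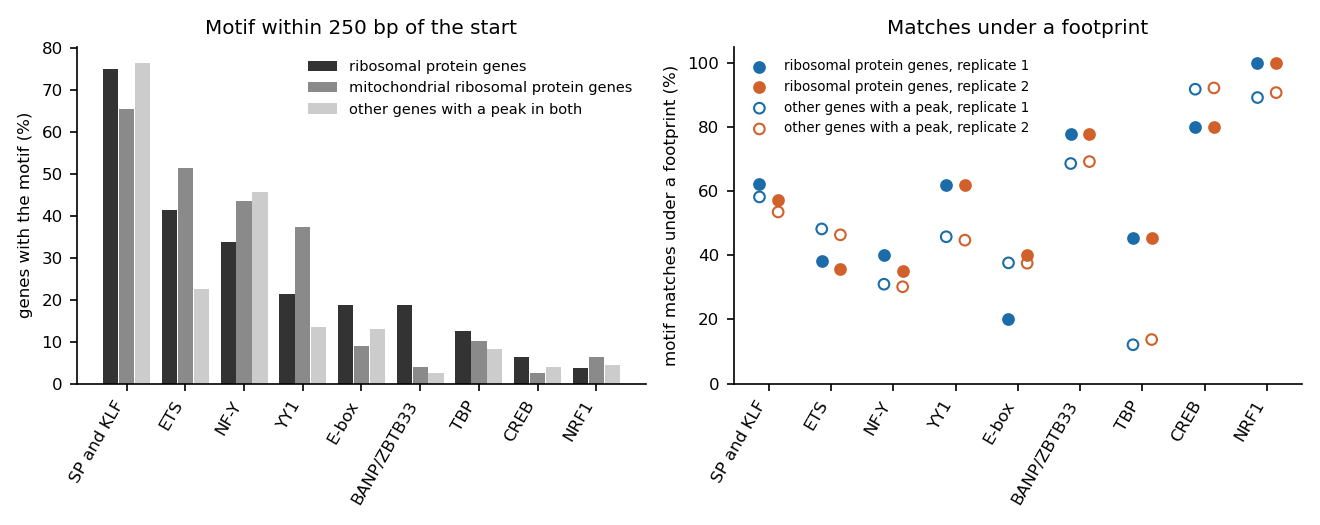
Left, share of genes (vertical axis, %) with each motif, named by factor (horizontal axis), within 250 bp of the chosen start, for ribosomal protein genes, mitochondrial ribosomal protein genes and other coding genes with a peak in both. Right, share of motif matches under a footprint (vertical axis, %) in each library, filled for ribosomal protein genes and open for other genes; NRF1 and CREB rest on 3 and 5 matches at ribosomal protein genes, and overlapping matches of BANP and ZBTB33 are counted separately (21 of 27 in each library).

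The TOP tract was looked for as a C followed by at least 4 more pyrimidines, beginning within 5 bp of a start. At RefSeq starts, which were available for 60 of the 80 genes, 28 genes (46.7%) had the tract, beside 23.3% of other open coding genes and 24.6% of mitochondrial ribosomal protein genes. At the chosen GENCODE start 23 of 80 had it, beside 18.6%. Those shares are not over the same genes or starts, since 72 RefSeq starts were searched at 60 genes and 1 chosen start at each of 80. At the chosen start of the 60 genes alone, 17 (28.3%) had the tract. The nearest RefSeq start lay within 10 bp of the chosen one at 23 genes and more than 100 bp from it at 12, with a median distance of 24 bp. Examples of 30 bases at RefSeq starts, credited to RefSeq on GRCm38.p6, are given with the tract in capitals to show how its length varied.
Rpl13a, chr7:45128724-45128753, minus strand: tgcgacaagaCCTCCTCCTTTCCCaggcgg
Rplp2, chr7:141447637-141447666, plus strand: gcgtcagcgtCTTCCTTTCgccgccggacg
Rpl28, chr7:4792953-4792982, plus strand: cctctcgtgtCTCTCTTTCCgtctccggcc
Rpl38, chr11:114668570-114668599, plus strand: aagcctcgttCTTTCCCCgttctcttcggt
Rps27, chr3:90213631-90213660, minus strand: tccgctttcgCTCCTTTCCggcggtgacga
Rpl39, chrX:37085207-37085236, minus strand: ctaagctccgCCTCTagcgacttcttctaa

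The starts of ribosomal protein genes were less GC-rich than those of other open genes and had a higher CpG ratio. Median GC content over 501 bp was 59.4%, beside 63.1% of other open genes and 57.9% of all coding genes, and the observed-to-expected CpG ratio was 0.88, beside 0.80 and 0.61.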

How the data were processed

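DNase-seq of 2 mouse cerebellum libraries was used as deposited on mm10. Per library, the deposited files are 2 peak lists with a signal value per peak, a table of cut-rate FDR values (q-values) listing intervals under 0.05, and a footprint list whose score column is the constant 0.01. Every peak of the stricter list held a base with an FDR under 0.001. Per the deposited notes the lists were made from each library's own alignments; no source used here names the aligner, the peak caller or the scale of the signal.

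Genes and starts came from GENCODE M21. A peak or footprint was counted where it overlapped, by at least 1 bp, 1 kb either side of any annotated start. The chosen start belongs to the transcript with the best APPRIS tag, then support level, then length. Signal was ranked among 21911 coding genes. Motifs were matched exactly with Python 3 scripts and pysam on GRCm38.p6; RefSeq starts matched 60 of the 80 genes. The counting and matching steps were tested on simulated data.

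Named genes were those without a peak, the 10 strongest, the 6 weakest with a peak, the 6 with most and 6 with fewest footprints, the 4 widest peaks, the 4 highest and 4 lowest ratios between libraries, the P-stalk genes, Rpsa, paralogs ending in x or l, and 9 genes known from mutants. Genes named for a motif, a shared start or a comparison were added after their values were seen. The gene set, lists and motifs were chosen with earlier results of these data known. Replicates are from separate pools by label; no test was made. Some genes that this rule selects are not reported here by name.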

Additional observations from a re-analysis of the deposited data

How the results depend on the processing

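With 1 group of 2 replicates, a value was called moved when it left the SD between replicates, which was 0 for the share with a peak, the peak width and the number of footprints, so small shifts count. The shares with the BANP motif and the TOP tract come from the sequence and have no SD between replicates. For these, a 95% exact (Clopper-Pearson) interval of the share was used instead. Of 36 alternatives, 24 stayed within the SD or interval and 12 did not. The share of genes with a peak, 96.25%, was 97.5% with the longer peak list and 95.4% with the gene set widened by 7 genes that the naming rule leaves out, such as Rps3a1 and Fau, of which Rps27rt had no peak. The median percentile, 82.9, was 83.72 with a window of 250 bp, 84.05 with 1 start per gene and, in an alternative chosen after seeing the data, 83.49 without the X-linked genes. The share with a footprint, 96.88%, was 95.98% in the widened set. The median number of footprints, 10, was 9 with a window of 250 bp, 10.25 with 2 kb and 6 with footprints under a stricter peak only. ETS matches under a footprint, 36.9%, came to 44.66% with the shorter site, where the order against other open genes turned round, and to 16.67% with the whole site inside the footprint. The share with a TOP tract, 28.75% at chosen GENCODE starts, was 46.67% at any of the RefSeq starts of 60 genes, an alternative also chosen after seeing the data that changes the genes and the number of starts as well. Leaving out a replicate gave 82.6 to 83.21 for the percentile, 96.25% to 97.5% for the share with a footprint and 35.71% to 38.1% for ETS matches; the share with a peak (96.25%), the width (240 bp) and the footprint number (10) were equal in both. The share with the BANP motif, 18.75%, was 17.53% in the strongest peaks and 16.67% in 300 bases around the RefSeq starts of 60 genes. Both values lie within its interval, 10.89% to 29.03%. That interval treats the genes as independent draws, and both searches reused the same genes. Lying within it is therefore no test of the share. No source used here gives the depth of the libraries, so weak peaks such as those of Rpl10l and Rpl3l in 1 library could not be set against a detection limit. No paired analysis was possible because the series has 1 group.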
